A study of Mus musculus with 2 samples.

Results

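The array design carried probes to intergenic transcript intervals that its annotation describes as lincRNA, each given as a stretch of the mouse genome (mm9) with a forward or reverse strand. These intervals, found by the wording of the probe descriptions among non-control spots, numbered 4622 and were read by 16251 probes, out of 34796 intervals and genes and 55676 non-control probes in all. The forward strand held 2324 intervals and the reverse strand 2298. Each probe was 60 bases long and was printed once, and an interval had a median of 3 probes (range 1 to 10). Intervals were between 62 and 7128487 bases long, with a median of 10676. Many overlapped on the same strand, so the 4622 intervals merged into 3370 loci.

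Both arrays measured RNA of cells labelled GT1-7, an immortalised mouse line derived from hypothalamic neurons that make gonadotropin-releasing hormone (GnRH). The vehicle array held cells given DMSO for 30 min, and the GnRH array held cells given 50 nM GnRH for 30 min, with 1 array a group on 1 slide. No difference therefore has a replicate check, and every comparison describes these arrays, with values of vehicle given before those of GnRH. The free-text description of the samples names 100 nM bradykinin and A549 cells instead; all other labels name GT1-7 and GnRH or vehicle, and the groups follow these. Gnrh1, the gene of the hormone that defines these neurons, failed the background mark on both arrays (signals of 7.94 on vehicle and 10.3 on GnRH), as did Six6, Meis1 and Nhlh2, so 4 of 8 listed GnRH neuron genes were measured. Of 6 listed gonadotrope genes 5 were measured on both arrays, Cga at 80508 and 69481 and Gnrhr, the GnRH receptor, at 14862 and 13656, and Fshb was not. Pitx1 read 48204 and 44001, Nr5a1 33412 and 28614, and Lhb 71.5 and 72.1. The measured GnRH neuron genes read 80.2 (Otx2), 21.7 (Dlx5), 2954 (Galnt7) and 81.9 (Kiss1r) on the vehicle array. Astrocyte genes (3 of 4, 71.8 to 691 on vehicle) and microglia genes (2 of 3, 46.6 and 1547 on vehicle) were measured too. Genes counted alike as measured thus differed widely in signal. The cell type behind these values was not tested, and the cells are called by their label alone.

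Long intergenic noncoding RNAs are transcripts without a long open reading frame that arise between protein-coding genes. Most are spliced and polyadenylated like mRNAs but are made at lower levels and in fewer cell types, and many lie close to genes of transcription factors and other regulators. A few have known work: NEAT1 RNA builds nuclear bodies called paraspeckles, MALAT1 (also named NEAT2) gathers in nuclear speckles, and XIST silences an X chromosome. Stimuli that open a gene's enhancers are known to bring short-lived transcription of the flanking sequence, which is one reason why intervals beside inducible genes were examined.

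The probe sequences below are those on which the results turn, copied from the array files, with the mm9 position and strand of each; capitals mark the hexamer AATAAA, the commonest polyadenylation signal. Only the strand of the probe was searched, and 3.92% of all lincRNA probes and 13.2% of mRNA probes held it. An occurrence describes the letters and is not evidence of a used site. The first set belongs to the single interval whose 3 probes were each at least 2-fold higher on the GnRH array:
chr5:73771824-73771883 forward: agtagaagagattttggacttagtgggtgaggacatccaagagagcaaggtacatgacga
chr5:73771892-73771951 forward: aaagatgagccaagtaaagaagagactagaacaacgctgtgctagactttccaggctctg
chr5:73772603-73772662 forward: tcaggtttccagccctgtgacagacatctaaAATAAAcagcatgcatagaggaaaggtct
The second set, next to Ubald1, is the interval with the largest difference toward the GnRH array among those measured on both arrays outside the slide areas described further on:
chr16:4871450-4871509 reverse: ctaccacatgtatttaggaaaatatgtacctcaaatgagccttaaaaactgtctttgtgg
chr16:4871510-4871569 reverse: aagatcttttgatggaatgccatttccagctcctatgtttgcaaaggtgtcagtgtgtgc
chr16:4871772-4871831 reverse: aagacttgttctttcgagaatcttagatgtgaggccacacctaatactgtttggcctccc
The third set lies 5′ of the inducible gene Npas4, on the strand of that gene. It holds some of the 12 probes there, and those shown all read higher on the GnRH array. The brightest of the 12, which read 208 and 192, is not among them:
chr19:4991455-4991514 reverse: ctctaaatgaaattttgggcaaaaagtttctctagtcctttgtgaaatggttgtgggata
chr19:4994327-4994386 reverse: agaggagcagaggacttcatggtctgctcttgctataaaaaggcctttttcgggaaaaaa
chr19:4994396-4994455 reverse: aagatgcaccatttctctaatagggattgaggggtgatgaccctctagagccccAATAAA
chr19:4994464-4994523 reverse: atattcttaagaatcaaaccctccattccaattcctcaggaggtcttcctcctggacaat
chr19:4996549-4996608 reverse: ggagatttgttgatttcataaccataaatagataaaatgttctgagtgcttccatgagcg
The next set lies 5′ of Ccn1, the gene the files name Cyr61, on the opposite strand:
chr3:145314877-145314936 forward: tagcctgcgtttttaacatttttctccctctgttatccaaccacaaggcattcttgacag
chr3:145314937-145314996 forward: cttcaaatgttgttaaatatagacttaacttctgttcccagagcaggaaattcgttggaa
chr3:145314998-145315057 forward: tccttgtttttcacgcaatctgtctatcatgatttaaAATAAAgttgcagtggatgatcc
The set for the NEAT2 and NEAT1 region holds 2 NEAT2 probes, a probe near the other end of the same interval, and the 3 probes of the interval 3′ of NEAT1, which differed between the arrays in different directions:
chr19:5795713-5795772 reverse: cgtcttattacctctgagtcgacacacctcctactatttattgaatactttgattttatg
chr19:5795773-5795832 reverse: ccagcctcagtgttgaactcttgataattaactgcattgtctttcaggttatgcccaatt
chr19:5802130-5802189 reverse: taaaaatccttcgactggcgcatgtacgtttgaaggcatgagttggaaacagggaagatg
chr19:5834543-5834602 reverse: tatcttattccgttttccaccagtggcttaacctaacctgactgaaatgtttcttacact
chr19:5834603-5834662 reverse: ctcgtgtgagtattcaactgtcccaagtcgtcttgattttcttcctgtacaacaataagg
chr19:5834857-5834916 reverse: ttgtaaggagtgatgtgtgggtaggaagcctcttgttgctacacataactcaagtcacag
The last set shows how the design separates strands, where the probes cover the same bases of a strand pair and a script found each to be the reverse complement of the other:
chr3:145271156-145271215 forward: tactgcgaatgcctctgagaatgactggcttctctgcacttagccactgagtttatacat
chr3:145271156-145271215 reverse: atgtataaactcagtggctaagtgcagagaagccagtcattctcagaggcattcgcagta
The forward probe of that pair was well above background on both arrays (38.6 and 26.8) and the reverse probe on neither (3.56 and 3.02). Over the whole design, 2138 of 2145 overlapping forward and reverse probe pairs were reverse complements over their overlap.

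An interval's value was that of its brightest probe by the mean of both arrays, and an interval counted as measured when this probe carried the scanner's mark for being well above background on both. By this rule 2761 of 4622 intervals (59.7%) were measured on both arrays, beside 60.6% of all intervals and genes. A further 213 (4.61%) were above background on the GnRH array alone, beside 2.71% of all, and 90 (1.95%) on the vehicle array alone, beside 0.954%. The remaining 1558 were above background on neither, so their levels have only an upper bound. Fewer cells that carry an RNA and less of it per cell cannot be told apart in such bulk RNA.

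Counted by probe, lincRNA probes were less often above background than mRNA probes. Of 16251 lincRNA probes 34.8% were well above background on both arrays, against 43.0% of 1215 probes with a noncoding RefSeq accession alone and 68.3% of 26540 mRNA probes. The median vehicle signal of those measured was 82.8 for lincRNA probes and 957 for mRNA probes. An interval was counted by its brightest probe, so its share cannot be set against a share of probes. Of 3397 intervals with 3 or more probes, 429 had every probe measured, 1762 some and 1206 none. The share by probe went with base composition, from 26.9% of lincRNA probes with under 40% GC to 71.9% of those with 60% GC or more, while mRNA probes went from 66.5% to 85.8%. The part of GC content in the presence calls was not tested. Intervals of the shortest quartile were measured in 48.8% of cases and those of the longest quartile in 64.9%, and by chromosome the share lay between 50.0% and 71.3%.

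**Figure D1:**
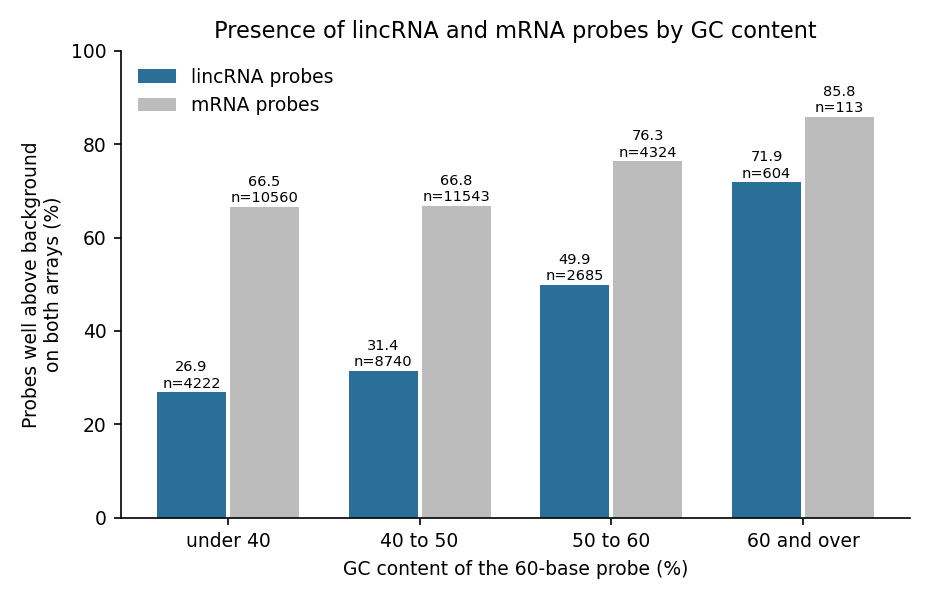
Share of probes well above background on both arrays (vertical axis, percent) by GC content of the probe (horizontal axis), for lincRNA and mRNA probes, with the number of probes over each bar. In each GC class the lincRNA bar is lower, 26.9% against 66.5% under 40% GC and 71.9% against 85.8% at 60% GC or more.

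Presence was also counted by strand. The strands of a stretch were read by different probes, and probes of 1 strand often disagreed too, as in 1762 of 3397 intervals above. Whether presence differed by strand beyond this was not tested. For 1067 stretches the design held an interval on each strand. Both strands were measured at 522 of them (48.9%), 1 strand alone at 410 (38.4%, the forward strand at 198 and the reverse strand at 212), and neither at 135 (12.7%). In these pairs 67.5% of forward and 68.8% of reverse intervals were measured, against 52.5% of the 2488 intervals with no partner. Where both strands were measured outside the areas, 478 of 512 pairs had both differences between the arrays within 1.5-fold, and 34 had 1 strand past it; no pair had both strands 1.5-fold higher or both 1.5-fold lower. The differences of the strands of a pair had a Spearman correlation of 0.05 across the 512 pairs, which share both arrays.

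The pairs brightest by their dimmer strand held values that hardly differed between the arrays. At chr12:73838608-73862621 the forward strand read 94396 and 90230 and the reverse strand 137311 and 134245, differences of 0.03 and 0.06 on the log2 scale after each array was scaled to its 75th percentile. At chr17:39960567-39992817 the forward strand read 56884 and 53838 and the reverse strand 37892 and 38911. That stretch encloses the probe of Rn18s, a ribosomal RNA gene, which read 505649 and 506553. All 10 forward and 10 reverse interval probes around it were measured, at vehicle signals of 8911 to 167943 and of 7464 to 37892, with differences of 0.01 to 0.09 and of 0.03 to 0.16. The other 4 pairs, on chromosomes 5, 7 and 12, had differences of -0.04 to 0.13.

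For 12 intervals the files give the name of a known noncoding RNA, and 10 of these were measured on both arrays. TUG1, an RNA first described in developing retina, was measured by all 5 of its probes, at 884 to 2670 with vehicle and 794 to 2417 with GnRH, with differences of -0.23 to -0.03. KCNQ1ot1, the imprinted antisense RNA of Kcnq1, was measured by 2 of 5 probes, the brighter at 1505 and 1469. NRON, known as a repressor of NFAT transport, was measured by 2 of 5 probes, the brighter at 145 and 154. The brightest interval probe of each of these RNAs differed by less than its scanner error. This is the error that the scanner software gives a spot, here carried over both arrays on the log2 scale. A further probe, named Kcnq1ot1, read 371 and 289, a difference of -0.27.

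Others were near the limit of detection. HOTAIR, the HoxC antisense RNA, was measured by 1 of 5 probes (57.9 and 53.8), H19, an imprinted RNA, by 1 of 5 (34.9 and 28.7), BRN1-A by 1 of 4 (26.5 and 26.0) and PINC by 1 of 5 (20.1 and 19.6). XIST was measured by 2 of 5 probes, at 30.7 and 20.5 and at 26.1 and 21.0. The genes named H19 and Xist, read by probes outside the intervals, were above background on neither array. TSIX, the antisense partner of XIST, and lincP21, which lies beside the p53 target Cdkn1a, had no probe well above background on either array. An RNA read by 1 dim probe of 5 is a weak detection, and nothing is read from its difference.

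The differences between the arrays along NEAT2 and NEAT1 varied by position. The 3 probes of NEAT2 lie together near the 3′ end of its interval and were higher on the GnRH array: 1013 on vehicle and 1436 on GnRH, 747 and 1118, and 846 and 1211, with log2 differences of 0.60, 0.68 and 0.61 (scanner error 0.204 each). The probe named Malat1 covers the same bases as the first of them and differed by 0.72, and a probe of an overlapping wide interval by 0.71. About 2.36 kb further 5′ on the same strand and inside the same interval, the 3 probes of chr19:5798135-5800557 read 5743 and 4977, 6955 and 5827, and 3469 and 2831, and the 3 probes of chr19:5801802-5802597 read 95798 and 79401, 20222 and 18094, and 37415 and 31877. All 6 of these read lower on the GnRH array, with log2 differences of -0.20 to -0.07. Each is smaller in size than its scanner error of 0.204, so none is read as a change. The last of the 6 probes lies in one of the slide areas described further on. The 3′ and 5′ probes of NEAT2 do not overlap in their differences. Probes on the forward strand over NEAT2 (3 measured) differed by -0.33 to -0.11.

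NEAT1 probes were lower on the GnRH array, and an interval 3′ of them more so. NEAT1 read between 590 and 1135 with vehicle and between 442 and 840 with GnRH, and its 5 probes and the probe named Neat1 differed by -0.37 to -0.22. Located 6.37 kb 3′ of NEAT1 on the same strand, chr19:5834117-5835940 read 264 and 127, 237 and 114, and 173 and 87.3 in its 3 probes. Their differences of -0.97, -0.96 and -0.89 (scanner error 0.209 to 0.215) were larger in size than any of the NEAT1 probes. NEAT1 is known to be made in a short and a long form that share their 5′ end; which form this interval reads was not tested. On the forward strand over NEAT1, 11 measured interval probes ranged from -0.73 to 0.68, with 7 above 0 and 1 in an area. The interval chr19:5841103-5845579 there read 91.8 and 138, a difference of 0.68.

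**Figure D2:**
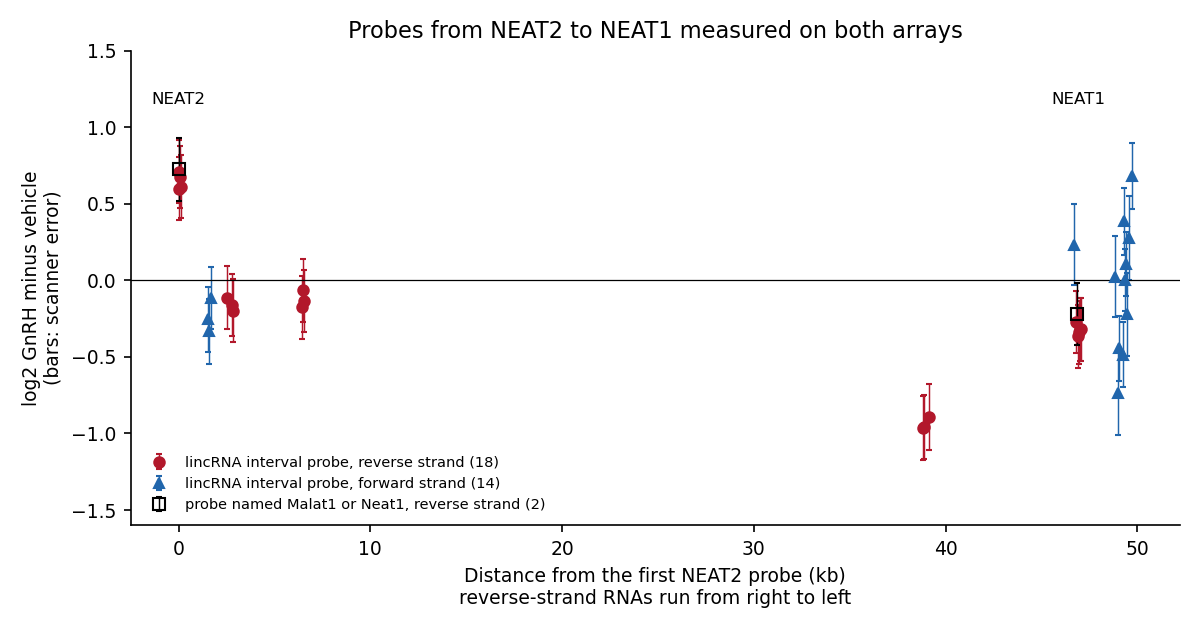
Difference between the arrays (log2 GnRH minus vehicle, vertical axis, bars give the scanner error) of each probe measured on both arrays, against its distance in kb from the first NEAT2 probe; circles are reverse-strand and triangles forward-strand interval probes, squares the probes named Malat1 and Neat1. The NEAT2 probes lie at 0.60 to 0.68, the 6 probes 5′ of them between -0.20 and -0.07, and the 3 probes of the interval 3′ of NEAT1 between -0.97 and -0.89.

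Intervals beside inducible genes were examined next. A list of 86 genes known to be induced within the first hours of stimulation was used, of which 42 had an interval within 100 kb of one of their probes. There were 150 such intervals, and 87 were measured on both arrays, with a median difference of 0.02 against -0.01 for all 2761 measured intervals. Of these 87, 2 were at least 2-fold higher (beside 0.308% of all intervals and genes), both inside the slide areas. Beside listed genes that were themselves at least 2-fold higher (14 genes), 27 intervals were measured outside the areas; their median was 0.04 and 16 of 27 were above 0. Of the 83 measured outside the areas beside any listed gene, 3 were at least 1.5-fold higher and 0 were 1.5-fold lower; of all intervals and genes outside the areas 1.06% and 0.791% were. The 3 lay beside Npas4, Ccn1 and Arc, though the nearest mRNA probe to the last is of Mroh4.

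Npas4, a transcription factor of neurons that responds to calcium entry, read 977 with vehicle and 50852 with GnRH. Upstream (5′) of its probe lie 4 intervals on its own strand, at distances of 6.94, 9.91, 12.1 and 17.0 kb. All 12 of their probes were well above background on the GnRH array and 9 of 12 on the vehicle array, and 11 of 12 read higher on the GnRH array. Over all lincRNA probes, 34.8% were above background on both arrays and 3.95% on the GnRH array alone. The 12 probes share both arrays and are no replicates, and the region was chosen after its values were seen. Over the 9 measured on both arrays, 8 were higher and the median difference was 0.58. In chr19:4994325-4994537 the 3 probes read 36.2 and 50.5, 42.3 and 74.8, and 31.8 and 56.9, differences of 0.58, 0.92 and 0.94 (scanner error 0.295, 0.244 and 0.267). In chr19:4991356-4993113 they read 60.7 and 152, 208 and 192, and 24.5 and 35.5, so its brightest probe differed by -0.02 while a dimmer one differed by 1.42. In chr19:4996544-4997119 the brightest probe, the one measured on both arrays, read 47.5 and 53.6, a difference of 0.27 (scanner error 0.246). Another probe there read 3.78, not above background, and 29.3. The furthest interval, chr19:5001448-5001810, had differences of 0.51 and 0.28 in its probes measured on both arrays. The groups of 12 vehicle and 12 GnRH signals overlap, and the difference lies within single probes.

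Ccn1, a matrix protein gene, read 446 and 2515. On the other strand, 3.03 kb 5′ of its probe, the 3 probes of chr3:145313275-145315057 read 105 and 150, 118 and 139, and 104 and 182, differences of 0.60, 0.33 and 0.90 (scanner error 0.212 to 0.214). A probe named Gm17501 covers the same bases as the last and differed by 0.78. Of the other intervals near Ccn1, chr3:145269449-145298239 on the strand of Ccn1 was above background on the GnRH array alone, by 1 of its 3 probes (10.1 and 41.6, at least 2.72-fold higher). Its edges lie 11.9 kb from the Ccn1 probe and 1.26 kb from a probe of Znhit6, a gene whose brightest probe read 10430 and 9740. Its probe above background starts at chr3:145271089 and the Ccn1 probe at chr3:145310187, so the signal was read near the Znhit6 end of the interval. Its forward partner differed by -0.43, and the other measured intervals near Ccn1, 39.4 and 80.3 kb away, differed by -0.24 and -0.02.

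Arc, which encodes a synaptic protein, read 327 and 2385. Of 13 intervals near it 4 were measured. The nearest, chr15:74507625-74519200 at 7.97 kb, read 53.8 and 49.9, a difference of -0.01. The interval chr15:74461988-74466728, 32.9 kb from the Arc probe, read 26.1 and 41.4, a difference of 0.76 (scanner error 0.311), by 1 of its 2 probes. The nearest mRNA probe to it is of Mroh4 (also named 1700016M24Rik), 25.4 kb away on the same strand. The wider interval chr15:74436455-74466741, which encloses it and overlaps the Mroh4 probe, read 221 and 224. On the opposite strand chr15:74477644-74477736 read 23.4 and 29.9, a difference of 0.45.

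Outside the areas, no other listed gene had a neighbour measured on both arrays and past 1.5-fold. Some neighbours were above background on 1 array alone. Those on vehicle alone lay beside Plk3 (44.4 and 16.5, at least 2.52-fold lower), Maff (31.3 and 14.5), Nfkbia (26.9 and 12.2) and Junb (24.2 and 13.6). Apart from the one near Ccn1, those on GnRH alone lay beside Id2 (16.8 and 20.9), Mcl1 (12.9 and 19.5) and Ccn2 (17.2 and 17.1, and 14.7 and 17.5). Egr1 (73.5 and 24361) and Fosb (72.1 and 5565) each had 1 interval within 100 kb, above background on neither array, and Fos (114 and 6725) had none. Beside Junb, chr8:87504644-87513694 on the strand of Junb read 462 and 428, a difference of -0.01, though the Junb probe differed by 3.31. Beside Jun (1.93), chr4:94719930-94825776 differed by 0.05. Beside Dusp6 (1.92), a phosphatase of the MAP kinase ERK, chr10:98730529-98741718 differed by -0.25. Spry1 (0.22), Mcl1 (-0.16) and Btg1 (0.24) were themselves within 1.5-fold. The 3 intervals nearest to Spry1 differed by -0.50 to 0.13, both intervals nearest to Mcl1 by 0.06 and 0.07, and the interval that overlaps the Btg1 probe by -0.30.

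Across 1922 intervals measured outside the areas with an mRNA probe within 100 kb measured too, the difference of the interval and that of the nearest mRNA probe had a Spearman correlation of 0.08. On the same strand it was 0.08 (1042 intervals) and on the opposite strand 0.08 (880 intervals). Both values of a point come from the same arrays, and a weak correlation of this kind is no finding.

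**Figure D3:**
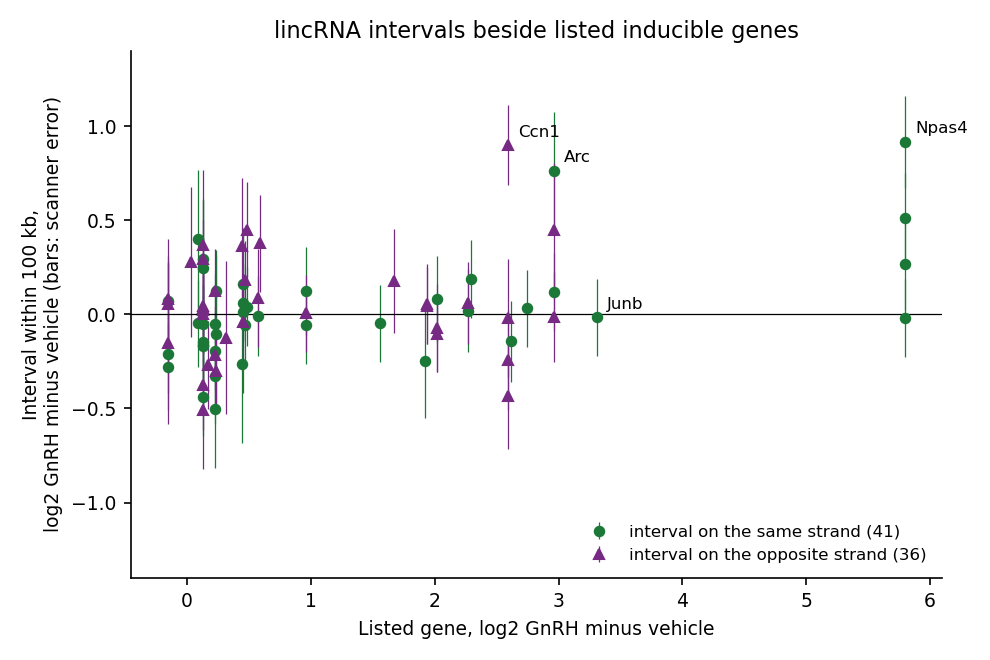
Difference of each measured lincRNA interval within 100 kb of a listed inducible gene (vertical axis, log2 GnRH minus vehicle, bars give the scanner error) against the difference of that gene (horizontal axis, log2), for 77 intervals outside the areas whose gene was measured outside them too. Most points lie near 0 at every gene difference, and the 3 past 1.5-fold stand beside Npas4, Ccn1 and Arc at 0.92, 0.90 and 0.76.

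Few intervals differed between the arrays. The median difference over 2761 measured intervals was -0.01, as it was over 18330 other features, and 95.7% lay within 1.5-fold against 98.3% of the others. Of the intervals, 12 were at least 2-fold higher on the GnRH array (0.435%, beside 0.308% of all intervals and genes) and 9 at least 2-fold lower (0.326%, beside 0.133%). At 1.5-fold 67 were higher (beside 1.19% of all) and 52 lower (beside 0.868%). Of those past 2-fold, 8 higher and 4 lower lay in areas of the slide where neighbouring spots differed together. Outside them 4 of 2723 intervals were higher (beside 0.216% of all) and 5 lower (beside 0.0671%). At 1.5-fold 57 of the 2723 were higher (beside 1.06% of all) and 45 lower (beside 0.791%), both larger shares than over all. The spread of the differences went with brightness: outside the areas its SD over intervals was 0.34 below a vehicle signal of 50 and 0.12 from 1000 up. Intervals were dimmer than other features, so the shares above are not matched for brightness. Below a vehicle signal of 50, 90.4% of intervals and 92.2% of other features outside the areas lay within 1.5-fold. From 50 to under 200 these shares were 97.8% and 97.7%, from 200 to under 1000 99.3% and 99.2%, and from 1000 up 99.3% and 99.7%. For comparison, a single spot among 262 probes printed 10 times had a spread of 0.11, and 0.19 in the dimmest quartile. That quartile reached a vehicle signal of 276, and only probes with every spot well above background were used. It therefore does not give the spread of spots at signals below 50.

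Of the 4 intervals higher outside the areas, chr5:73771801-73772662 on the forward strand had the most even support. Its 3 probes read 41.9 and 95.1, 55.9 and 129, and 241 and 535, differences of 1.28, 1.30 and 1.25 (scanner error 0.243, 0.225 and 0.206). It is the single interval, of 775 with 3 or more probes measured outside the areas, in which each probe was at least 2-fold higher; 0 had each probe 2-fold lower. The nearest mRNA probe, of Ociad2, lies 58.3 kb away on the other strand and differed by -0.03.

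Among intervals measured on both arrays outside the areas, the largest difference toward the GnRH array was in chr16:4871449-4874336 on the reverse strand. Its edge lies 0.427 kb from a probe of Ubald1 (Fam100a in the files), on the same strand and 3′ of it. The 3 probes of the interval lie between 4871450 and 4871831, and the Ubald1 probe starts at 4874763. Its brightest probe read 39.4 and 100.0, a difference of 1.44 (scanner error 0.242), and its other probes went from below background, 12.4 and 11.9, to 41.3 and 33.9. Ubald1 itself read 1177 and 1315, a difference of 0.25. The wider interval chr16:4867322-4874772 on the same strand, measured by 1 of 8 probes, differed by 0.05, and that probe starts at 4867588. A probe of Gm10914 on the same strand, starting at 4869242, read 485 and 545, a difference of 0.27.

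The remaining higher intervals had probes that disagreed. In chr15:79764481-79809909 on the reverse strand, 16.5 kb from the growth factor gene Pdgfb, the brightest probe read 2188 and 4170 (1.02) and the other measured probe 93.6 and 103 (0.24), out of 7. In chr1:163508244-163586072 the brightest probe read 31.4 and 65.8 (1.16) and another measured probe 30.7 and 17.8 (-0.69).

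Among the 5 lower intervals, chr1:139822286-139822985 on the forward strand was lower in each of its 3 probes, 49.6 and 29.4, 61.5 and 40.5, and 110 and 49.8, with differences of -0.66, -0.51 and -1.04. On the same strand within 30 kb, chr1:139795171-139796306 differed by -0.97 and chr1:139806645-139809498 by -0.33, whereas the wide interval chr1:139713316-139913366 that encloses all of them differed by 0.11. In chr2:115900355-115900904 the 2 measured probes read 57.1 and 23.9, and 45.8 and 22.1 (-1.16 and -0.96), and an overlapping interval read 1333 and 1803 (0.53) but lies in an area. The nearest mRNA probe there is of Meis2, a homeobox gene, 211 kb away.

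The other 3 rested on 1 probe. The single probe of chr17:17371885-17406679 read 173 and 17.3, a difference of -3.23, but 3 same-strand intervals that overlap it or lie within 30 kb differed by -0.09 to 0.12. The probe of chr1:88524037-88540731 read 79.7 and 31.3 (-1.26), with its other probe below background. In chr13:54399275-54445825 the brightest probe differed by -1.12 and the other measured probe by 0.45.

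**Figure D4:**
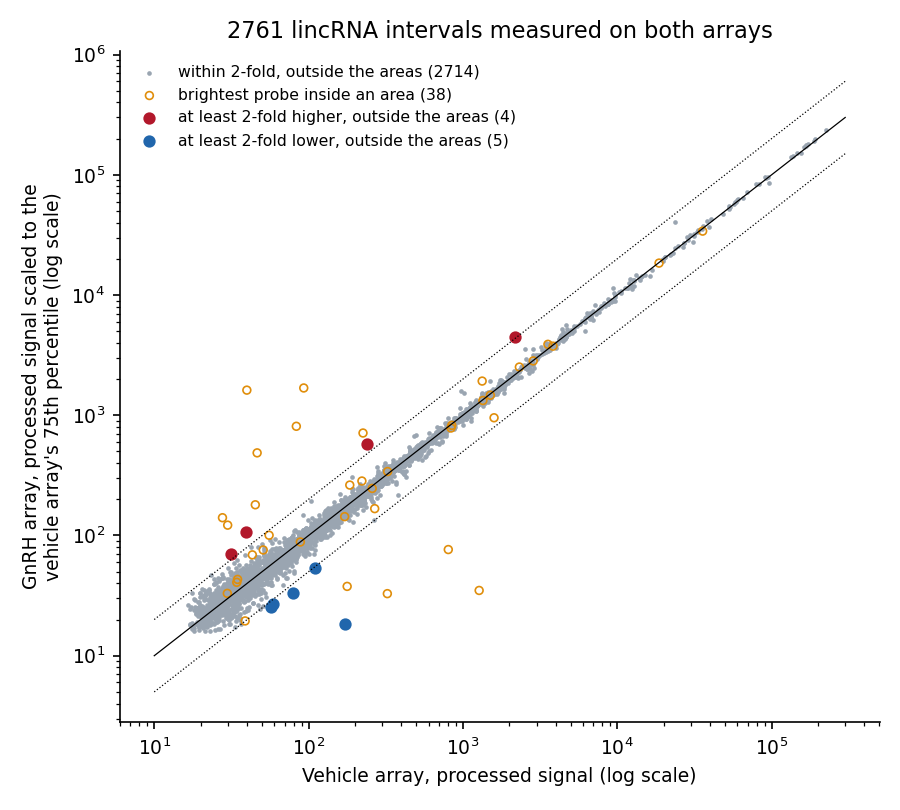
Signal of each measured lincRNA interval with vehicle (horizontal axis, log scale) and with GnRH after scaling to the 75th percentile of the other array (vertical axis, log scale), with lines at equality and at 2-fold. The 2723 intervals outside the areas stay close to the line, apart from 4 higher and 5 lower, and the 38 intervals inside the areas (open circles) scatter widely.

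**Figure D5:**
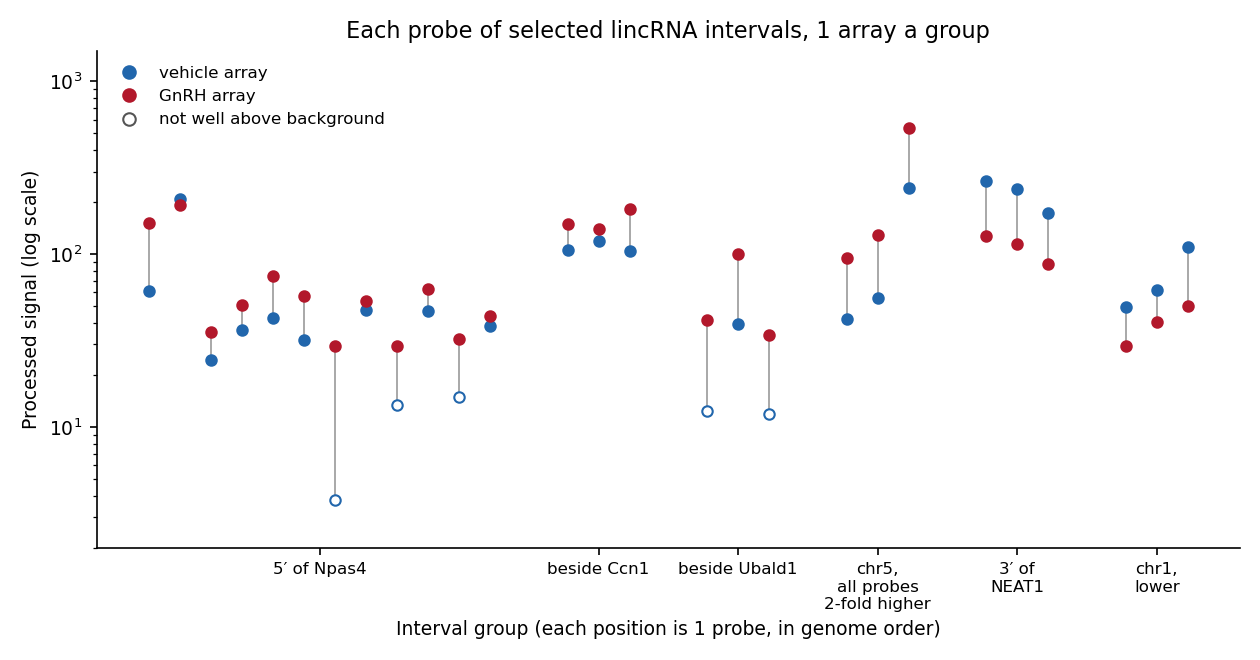
Processed signal (vertical axis, log scale) of each probe of selected intervals (horizontal axis) on both arrays, joined by a line; open circles are not well above background. The probes of the chr5 interval lie at 41.9, 55.9 and 241 with vehicle and at 95.1, 129 and 535 with GnRH, and those 3′ of NEAT1 are all lower with GnRH. In the region 5′ of Npas4, chosen after its values were seen, 11 of 12 probes are higher on the GnRH array.

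Probes of an interval agreed only in part. For 1419 intervals with 2 or more probes measured outside the areas, the brightest and next brightest probe had differences with a Spearman correlation of 0.16. Where the brightest was at least 1.5-fold higher (19 intervals), the next was too in 3 and was above 0 in 13. Where it was 1.5-fold lower (15 intervals), the next was too in 4 and was below 0 in 10. In 3 intervals all of at least 2 measured probes were 1.5-fold higher (chr5:73771801-73772662, NEAT2, and chr5:121759042-121789992 with a signal of 20.7 on the vehicle array), and in 3 all were 1.5-fold lower (chr2:115900355-115900904, the interval 3′ of NEAT1, and chr16:90008636-90015586). In chr16:59557120-59602070 on the reverse strand the brightest probe read 822 and 765 (-0.01), while others read 204 and 23.9 (-3.00) and 41.1 and 15.1 (-1.35), so the value of that interval depends on the probe.

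Intervals above background on 1 array alone were dim. The 213 on the GnRH array had a median signal of 20.1 and the 90 on the vehicle array one of 24.5, where the lowest signals well above background were 14.1 and 16.3. Against that limit 19 were at least 2-fold higher on the GnRH array and 20 at least 2-fold lower (beside 0.213% and 0.21% of all intervals and genes), of which 7 and 8 lay outside the areas. The largest bound toward the GnRH array outside the areas was that of a reverse-strand interval on chromosome 18 near Ube2d2a (7.78 and 53.6, at least 3.51-fold higher), followed by chr13:99870660-99877535 (7.89 and 48.0, at least 3.14-fold higher). The largest toward the vehicle array was that of chr14:65878005-65878630 (91.4 and 7.93, at least 6.09-fold lower). In each, 1 of 3 probes was above background, and the differences had scanner errors of 0.83, 0.72 and 0.60. The limit is the lowest signal that passed, and some probes above it failed the mark, such as 1 at 19.1 on vehicle. These bounds are therefore approximate. The other named bounds lay between 2.10-fold and 2.72-fold.

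The brightest intervals read nearly the same on both arrays. The 10 brightest lay between 137311 and 226860 on the vehicle array and differed by -0.01 to 0.09. The 3 probes of chr17:17481706-17482457 on the reverse strand read 71597 and 64600, 125145 and 121493, and 188846 and 180234, and those of chr6:116123643-116124550 differed by -0.05 to -0.01. Elsewhere 1 probe set the rank: chr14:78924115-78938125 had a probe at 171338, another at 76.3 and 5 not above background, and chr12:73838608-73862621 on the reverse strand a probe at 137311, next measured probes at 244 and 127. Brightness depends on the probe, so this order is not one of RNA amount. Among 82 intervals with a vehicle signal of 10000 or more, the 1 past 1.5-fold outside the areas was chr11:35805295-35817263, with a single probe at 23810 and 37918 (0.77); an overlapping interval, chr11:35810031-35810205, read 4653 and 5266 (0.27). The most probes an interval had was 10, in 147 intervals. Of these, 127 were measured outside the areas, with a median difference of -0.01 and a range of -0.71 to 0.68, and 2 were at least 1.5-fold higher and 2 lower. The 6 brightest of the 147 had 3 to 8 probes measured and differed by -0.11 to 0.16.

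The areas were 3 patches of the slide in which the spots around a spot differed between the arrays by a median of 0.3 or more on the log2 scale. They held 625 of 59305 non-control spots, 178 lincRNA probes and the brightest probe of 84 intervals, 38 of them measured, of which 8 were at least 2-fold higher and 4 lower. The largest differences inside were 5.35 and -5.19, and chr17:6324860-6326762, chr3:95457337-95458070 and chr1:162933979-162944379 differed by 4.18, 3.39 and 3.28. The part of the areas in them was not tested.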

How the data were processed

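RNA of both samples was read on Agilent mouse arrays in 1 colour, per the labels' protocols. Linear intensity values per spot come from the deposited scanner output; per the file headers, Feature Extraction 10.7.1.1 subtracted background (the submitters' processing notes name 9.5.1.1) and positions are mm9. The authors' deposited table holds normalized linear intensity by a method not given in the sources used here, and served as an alternative.

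Here log2 processed signals were scaled to each array's 75th percentile over non-control probes (578 and 541). A difference is the GnRH value minus that of vehicle, and its error combines the software's own spot errors, mostly a multiplicative setting. No test is possible with 1 array a group. Areas are connected sets of at least 4 spots, each with a neighbour median (2 spots around) of 0.3 or more, widened by 2 spots. Lower bounds set the bright signal over the higher of the dim signal and the lowest value that passed the background mark there. Distances to a gene run from the nearest edge of the interval to a probe of the gene, and the interval's own probes can lie further away. Positions inside exons or introns were not assigned. Current symbols come from a RefSeq table.

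The members and lists were chosen with earlier results of these data known. Named were the 10 brightest intervals, all at least 2-fold different, the 5 largest bounds and area values each way, the 10 nearest a listed gene, the 6 brightest strand pairs and the 6 with most probes, of 147 tied at 10 the brightest; the labelled RNAs, the NEAT2 to NEAT1 and Npas4 regions and the intervals with several probes past 1.5-fold were chosen after their values were seen. The sequence of 1 further probe is not reported here. The steps were tested on simulated data. Python 3.11.15, pandas 2.3.3, R 4.3.3 and limma 3.58.1 (normexp alternative, offset 50) were used.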

Additional observations from a re-analysis of the deposited data

How the results depend on the processing

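No paired analysis was possible because each group had 1 array. Against 12 intervals at least 2-fold higher and 9 lower, normexp background correction gave 7 and 5, no background correction gave 5 lower, a lowess trend removal 14 lower, and leaving out the areas 4 and 5. No filter gave 254 and 164 and the looser background call 118 and 82. At 1.5-fold the counts were 67 and 52, and at 3-fold 5 were lower. The authors' deposited table gave 12 of each, among them all 12 higher and all 9 lower intervals. Strand pairs with both strands measured went from 522 to 807 with the looser call and to 1051 when overlap by 50% of the shorter interval made a pair. Bounds of at least 2-fold went from 39 to 20 with normexp, 218 with the looser call and 15 without the areas. The median differences of all intervals and of those beside listed genes moved by less than the spread of single spots under every alternative run. Scaling the arrays to each other largely sets such medians, and the spread of single spots is a wide limit for a median over many intervals. The small moves of these medians are therefore no check of the results. Of 175 differences recomputed for 25 named intervals, 148 moved by less than the spread of single spots and 27 by more. No called difference among them changed sign. With 1 array a group nothing here has a replicate check, and below a signal of about 50 scanner error and spread limit what can be read.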
